A study of Mus musculus with 6 samples.

Results

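Cish, the SOCS family genes Socs1 to Socs7 and the transcription factor genes Stat5a and Stat5b were followed in mouse leukaemia cells after Cre-ERT2 was switched on. These 10 genes were chosen by name, out of 19938 genes tested on the array, and all 10 were measured. Earlier results of these data were known when they were chosen. The cells were C57Bl/6 pre-B cells transformed with BCR-ABL1, the fusion kinase of Philadelphia chromosome-positive acute lymphoblastic leukaemia, and every array came from cells with the genotype Bcor fl/Y, in which the single X-linked Bcor gene carries a floxed allele. Of the 6 arrays, 3 came from cells transduced with the PMIP-CRE-ERT2 vector and 3 from cells transduced with PMIP-ERT2, the matching vector without Cre. Cre-ERT2 is a Cre recombinase that is inactive until tamoxifen binds it. Both groups were puromycin-resistant cells given 4OH-Tamoxifen at 0.5 micromolar and collected after 2 days. The drug, the kinase and the floxed allele are therefore common to both. No array has Cre without the floxed allele, so effects of Cre itself and of recombining Bcor cannot be told apart. The series title names the function of Bcor in such cells as its subject. The floxed part of Bcor is not given in the labels, nor is it said that arrays of a group stem from separate cultures. The p-values therefore speak of the variation among these arrays alone, and that variation can be technical.

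STAT5A and STAT5B are closely related transcription factors that are activated by tyrosine phosphorylation, through JAK kinases at cytokine receptors or, in these leukaemias, through BCR-ABL1. Active STAT5 dimers bind DNA at the sequence TTCNNNGAA and switch on, among other genes, Cish and several SOCS genes. The SOCS proteins close a feedback loop: an SH2 domain binds phosphotyrosine on receptors or kinases, and a SOCS box recruits a ubiquitin ligase. CIS, the product of Cish, occupies receptor sites that STAT5 would use, SOCS1 and SOCS3 also block the JAK catalytic site, and SOCS2 is best known for damping growth hormone signalling.

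RefSeq promoter sequences (GRCm38.p6, 250 bases before to 50 after the gene start) were at hand for 6 of the 10 genes, and those of 3 genes that were higher with Cre-ERT2 are shown because they differ in the STAT motif. Capitals mark TTCNNNGAA, which reads the same on both strands. Cish is at chr9:107296409-107296708 (plus strand), Socs3 at chr11:117969317-117969616 (minus strand) and Socs1 at chr16:10785487-10785786 (minus strand).
Cish: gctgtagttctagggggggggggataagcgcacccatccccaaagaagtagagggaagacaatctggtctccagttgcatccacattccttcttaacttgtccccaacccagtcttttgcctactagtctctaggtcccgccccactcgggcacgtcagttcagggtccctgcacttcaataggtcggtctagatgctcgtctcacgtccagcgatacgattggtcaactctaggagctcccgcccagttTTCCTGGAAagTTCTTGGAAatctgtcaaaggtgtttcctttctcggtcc
Socs3: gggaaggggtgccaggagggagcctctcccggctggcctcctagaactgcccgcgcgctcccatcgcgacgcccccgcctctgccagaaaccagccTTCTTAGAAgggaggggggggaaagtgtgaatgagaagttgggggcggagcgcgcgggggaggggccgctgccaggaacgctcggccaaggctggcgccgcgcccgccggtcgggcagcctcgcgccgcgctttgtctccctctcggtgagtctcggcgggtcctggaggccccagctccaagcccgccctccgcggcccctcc
Socs1: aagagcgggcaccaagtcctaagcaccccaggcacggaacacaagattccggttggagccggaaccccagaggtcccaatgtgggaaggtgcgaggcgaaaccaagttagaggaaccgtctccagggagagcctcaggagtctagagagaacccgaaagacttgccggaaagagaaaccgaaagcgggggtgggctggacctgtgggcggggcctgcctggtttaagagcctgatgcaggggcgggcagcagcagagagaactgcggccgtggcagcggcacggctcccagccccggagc
The Cish promoter held 2 such motifs, TTCCTGGAA beginning at base 1 of the gene as RefSeq starts it and TTCTTGGAA beginning at base 12, with 2 bases between them. The Socs3 promoter held 1, TTCTTAGAA, which begins 154 bases before the gene start. The Socs1 and Socs4 promoters and the 2 promoters listed for each of Stat5a and Stat5b held none. Of all 32851 promoters of this length in the table, 8.30% held at least 1 such motif and 0.457% held at least 2. A match describes these letters and is not evidence of binding. Socs2, Socs5, Socs6 and Socs7 have no entry in the table.

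Bcor, the targeted gene, averaged 9.16 ± 0.0716 with Cre-ERT2 and 10.12 ± 0.0517 with ERT2 (SD, n = 3 each; log2 expression values), and its Cre-ERT2 level was 0.515 times the ERT2 level. Whether the Bcor probes lie inside the floxed part is not given. Array medians over all probe sets lay between 8.61 and 8.68 in Cre-ERT2 and between 8.61 and 8.66 in ERT2. Most genes of the pre-B stage were well represented. The 11 measured markers averaged 11.90 to 11.97 on the Cre-ERT2 arrays and 11.90 to 11.95 on the ERT2 arrays. Igll1 was at 14.25 with Cre-ERT2 and 14.20 with ERT2, and Cd79a at 13.31 with Cre-ERT2 and 13.28 with ERT2. The dimmest were Dntt, at 8.67 with Cre-ERT2 and 7.81 with ERT2, and Rag2, at 8.59 with Cre-ERT2 and 9.30 with ERT2. Of these 11, 2 were called higher (Dntt at 0.86 and Cd24a at 0.19 on the log2 scale) and 2 lower (Rag2 at -0.71 and Rag1 at -0.38), with 6 at an unadjusted p under 0.05. Of all 19938 genes tested, 4.05% were called higher and 2.98% lower. At the unadjusted threshold 1596 of them were higher and 2994 lower. The 9 myeloid markers averaged 7.96 to 7.995 with Cre-ERT2 and 7.97 to 7.99 with ERT2, and 1 of 9 was called higher (Lyz2). At an unadjusted p under 0.05, 4 of the 9 passed: Lyz2 was higher, while Csf1r, Elane and S100a8 were lower. The 7 T cell markers averaged 8.07 to 8.11 with Cre-ERT2 and 8.10 to 8.20 with ERT2. The 5 stromal markers averaged 8.60 to 8.63 with Cre-ERT2 and 8.67 to 8.71 with ERT2. Of these T cell and stromal markers, 0 of 7 and 0 of 5 were called by limma (3 and 2 at an unadjusted p under 0.05). The stromal averages were lower on every Cre-ERT2 array, and their part in the results was not tested. Of 3 measured erythroid markers 0 were called by limma, and 0 at an unadjusted p under 0.05. RMA values have no zero, so no marker could be called absent.

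Of the 10 genes, limma called 4 higher with Cre-ERT2 (Cish, Socs3, Socs2 and Socs1) and 0 lower at a Benjamini-Hochberg adjusted p under 0.05 over all 19938 genes. At an unadjusted p under 0.05, 5 were higher and 1, Socs6, was lower. At that threshold 1596 of all 19938 genes were higher and 2994 lower. Over all genes 7.03% were called, 4.05% higher and 2.98% lower. The groups did not overlap for 6 of the 10, 5 with Cre-ERT2 above and 1 below, where 29.9% of all genes were apart (9.56% above and 20.3% below). The median log2 fold change of the 10 was 0.09, against -0.037 over all genes, and their median absolute change was 0.14, against 0.063. As the 10 were chosen with earlier results of these data known, these comparisons are descriptions and not tests. Because the array reads RNA in bulk, fewer cells making a transcript and less of it per cell cannot be told apart.

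**Figure D1:**
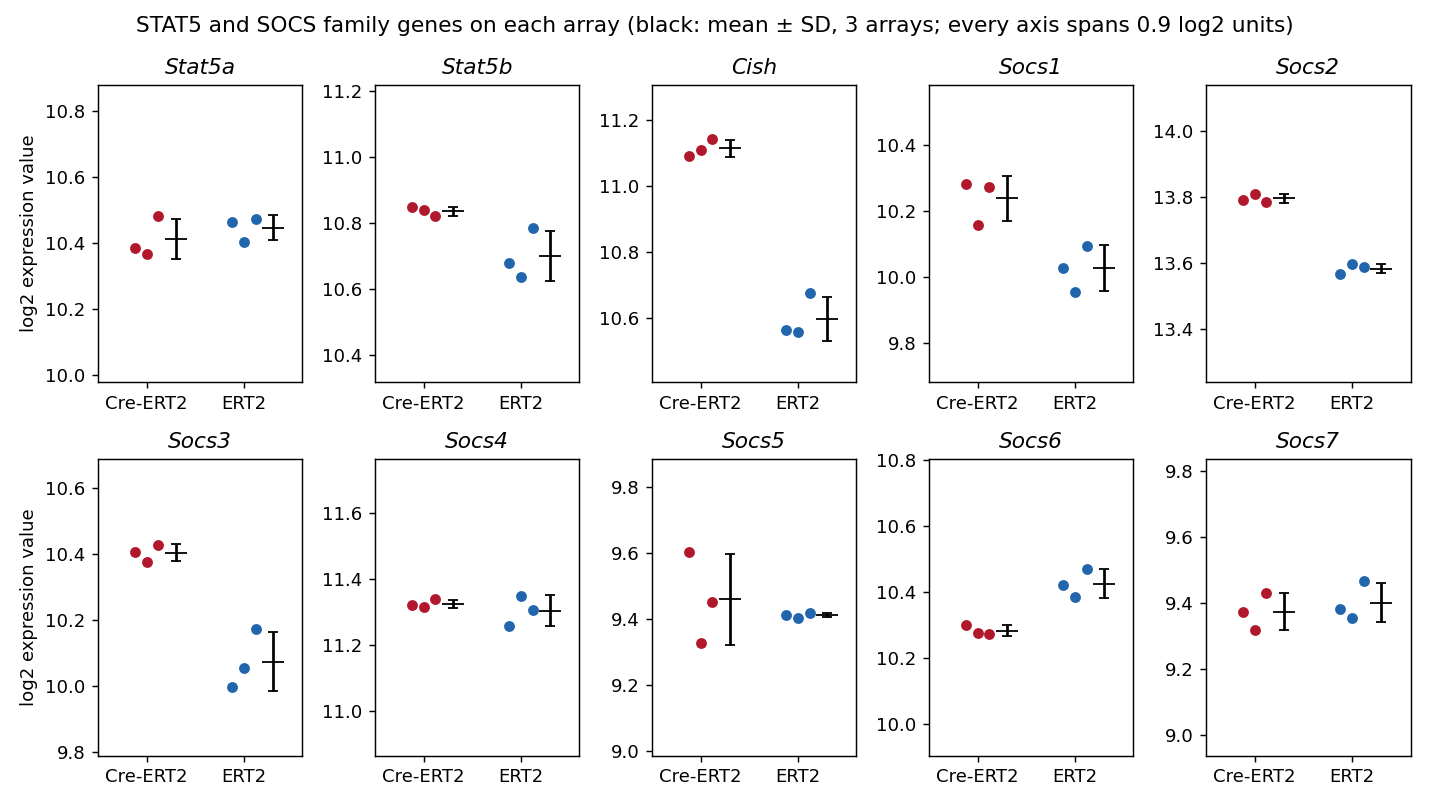
Log2 expression value of each gene (y axis, a window of equal width in every panel) on the 3 Cre-ERT2 arrays (red) and the 3 ERT2 arrays (blue), with the mean and SD in black. Cish, Socs1, Socs2, Socs3 and Stat5b lie higher on every Cre-ERT2 array than on any ERT2 array, Socs6 lies lower, and Stat5a, Socs4, Socs5 and Socs7 overlap.

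Neither STAT5 gene passed the test. Stat5a had log2 values of 10.39, 10.37 and 10.48 on the Cre-ERT2 arrays, against 10.46, 10.40 and 10.47 on the ERT2 arrays. The groups overlapped, and the difference was -0.036 (SE 0.0447, limma adjusted p = 0.662), with a 95% interval from -0.14 to 0.066. Stat5b, its neighbour on the chromosome, had 10.85, 10.84 and 10.82 with Cre-ERT2, against 10.68, 10.64 and 10.79 with ERT2. Every Cre-ERT2 value of Stat5b was above every ERT2 value, the nearest ERT2 array being replicate 3. The difference of 0.14 (SE 0.0463) had an interval from 0.030 to 0.24 and did not pass over all genes (limma adjusted p = 0.127). On the linear scale these intervals run from 0.909 to 1.05 times for Stat5a and from 1.02 to 1.18 times for Stat5b. With array weights the Stat5b difference was 0.15 and was called (limma adjusted p = 0.0233).

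Cish had the largest difference of the 10 genes. Its log2 values were 11.09, 11.11 and 11.14 on the Cre-ERT2 arrays, against 10.56, 10.56 and 10.67 on the ERT2 arrays. The gap between the lowest Cre-ERT2 array and the highest ERT2 array was wider than the range within either group. The means were 11.11 ± 0.0261 with Cre-ERT2 and 10.60 ± 0.0665 with ERT2 (SD, n = 3 each), which is 0.52 on the log2 scale (SE 0.0447, adjusted p = 0.000260 by limma), or 1.43-fold with a 95% interval from 1.33 to 1.53. By p it ranked 125 of 19938 genes. Its call held under each of the 14 alternative settings, with a log2 fold change from 0.49 to 0.55. The genes on either side of it, Mapkapk3 and Hemk1, were at 0.11 each and did not pass (adjusted p = 0.153 and 0.182).

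Among the SOCS genes whose products are best known as cytokine feedback inhibitors, Socs3 came next. Its probe set of higher mean, 10393449, had 10.41, 10.38 and 10.43 with Cre-ERT2, against 9.99, 10.05 and 10.17 with ERT2. The Cre-ERT2 arrays lay within a narrow band above all ERT2 arrays, which were more spread (SD 0.0254 with Cre-ERT2 against 0.0900 with ERT2). The difference was 0.33 on the log2 scale (SE 0.0506, adjusted p = 0.00569 by limma), or 1.26-fold. The other Socs3 probe set, 10383010, whose annotation lists a single sequence record and no RefSeq transcript, had 8.25, 8.35 and 8.53 with Cre-ERT2, against 8.27, 8.36 and 8.38 with ERT2. These groups overlapped, and its difference was 0.043 (SE 0.0694, limma adjusted p = 0.748 over 21789 probe sets). With the mean of both probe sets, the Socs3 difference was 0.19 and was not called (limma adjusted p = 0.0814).

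Socs2 was read by 2 probe sets that moved the same way. Probe set 10394674 had 13.79, 13.81 and 13.79 with Cre-ERT2, against 13.57, 13.60 and 13.59 with ERT2, and 10372069 had 11.47, 11.47 and 11.56 with Cre-ERT2, against 11.17, 11.21 and 11.19 with ERT2. Both separated the groups, and the arrays within a group were close together. The first, which represents the gene, gave a difference of 0.21 on the log2 scale (SE 0.0355, limma adjusted p = 0.00851), or 1.16-fold. In the fit over probe sets, 10372069 was at 0.31 (SE 0.0407, limma adjusted p = 0.00302), or 1.24-fold. The Socs2 call held under each of the 14 settings, with an adjusted p of up to 0.0499. Of the genes beside Socs2, the death domain adaptor gene Cradd was higher by 0.51 (limma adjusted p = 0.000155), while Mrpl42 was at -0.046 and did not pass.

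Socs1 lay nearest the threshold. Its values were 10.28, 10.16 and 10.27 with Cre-ERT2, against 10.03, 9.96 and 10.09 with ERT2. The groups did not overlap, but Cre-ERT2 replicate 2 and ERT2 replicate 3 were only a little apart. The log2 fold change was 0.21 (SE 0.0519, limma adjusted p = 0.0468), or 1.16-fold with a 95% interval from 1.07 to 1.26. The call ended after quantile normalization (adjusted p = 0.0806) and median centring (0.0744), and in the fit over all 21789 probe sets (limma adjusted p = 0.0517). It also ended whenever 1 array was left out, Cre-ERT2 replicate 2 excepted (limma adjusted p from 0.0508 to 0.143), while the log2 fold change stayed between 0.18 and 0.25 in all 14 settings.

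The other SOCS genes, whose products have the same domain plan but are less tied to JAK signalling, did not pass. Socs6, known for binding the receptor tyrosine kinase KIT, had 10.30, 10.27 and 10.27 with Cre-ERT2, against 10.42, 10.38 and 10.47 with ERT2 in its probe set of highest mean, 10566668. All 3 Cre-ERT2 arrays were lower, and the difference was -0.14 (SE 0.0392, 95% interval from -0.23 to -0.053, limma adjusted p = 0.0698). It was called with an intensity trend (adjusted p = 0.0494), with array weights (0.0224) and with the dimmest 30% of genes left out (0.0355). The other Socs6 probe sets, 10460118 and 10460116, were at -0.097 and -0.061 with overlapping groups, and none of the 3 was called. All 3 lay below 0, as did the median of all genes, -0.037. Probe set 10460116 averaged 4.74 with Cre-ERT2 and 4.80 with ERT2, far below the array medians of 8.61 to 8.68.

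Socs5, reported to damp EGF receptor signalling, had 9.60, 9.33 and 9.45 with Cre-ERT2, against 9.41, 9.40 and 9.42 with ERT2. The Cre-ERT2 arrays lay on both sides of the ERT2 arrays, and the SD was 0.138 with Cre-ERT2 and 0.00657 with ERT2. The difference was 0.049 (95% interval from -0.098 to 0.20, limma adjusted p = 0.680). Socs4, its closest relative in the family, had 11.32, 11.31 and 11.34 with Cre-ERT2, against 11.26, 11.35 and 11.30 with ERT2, a difference of 0.021 (95% interval from -0.069 to 0.11). Socs7 had 9.37, 9.32 and 9.43 with Cre-ERT2, against 9.38, 9.35 and 9.47 with ERT2, a difference of -0.027 (95% interval from -0.13 to 0.081). For Socs4 and Socs7 the groups overlapped, the adjusted p were 0.778 and 0.766, and the intervals stayed inside a change of 0.14 either way. The signs of the Socs4, Socs5 and Socs7 differences turned when single arrays were left out.

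**Figure D2:**
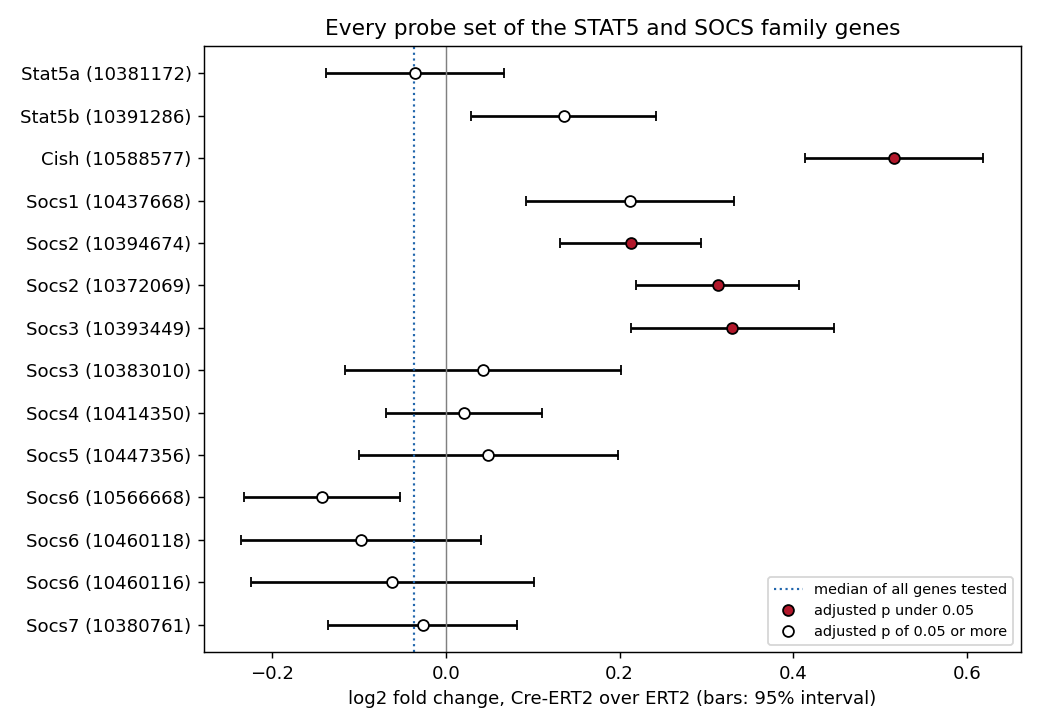
Log2 fold change, Cre-ERT2 over ERT2 (x axis), with its 95% interval for each of the 14 probe sets of the 10 genes, in the fit over 21789 probe sets. Filled points passed an adjusted p under 0.05: Cish, Socs3 10393449 and both Socs2 probe sets; Socs1 is open here at 0.0517, and the dotted line is the median of all genes, -0.037.

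Across the 14 probe sets, 4 were called higher and 0 lower, where 6.33% of all 21789 probe sets were called in either direction. No probe set with several gene symbols named any of the 10 genes (0 found). Of the 18 other measured protein-coding genes next to these 10 in the gene table, 1 was called higher (Cradd) and 0 lower by limma. The shares over all 19938 genes were 4.05% higher and 2.98% lower. At an unadjusted p under 0.05, 5 neighbours were higher and 1, Tnp2 beside Socs1, was lower, against 1596 and 2994 of all genes.

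**Figure D3:**
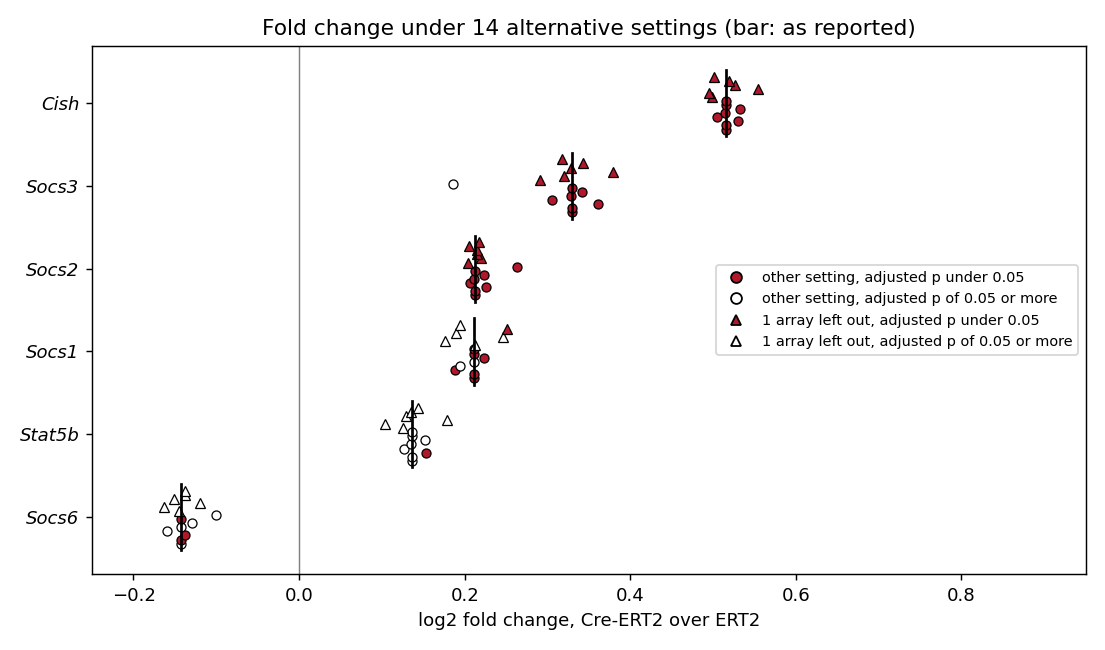
Log2 fold change, Cre-ERT2 over ERT2 (x axis), of 6 genes under 14 alternative settings; triangles leave out 1 array, circles change the fit or scaling, filled symbols passed an adjusted p under 0.05, and the bar is the value as reported. Cish and Socs2 stay filled in all 14, Socs3 turns open with the mean of its probe sets, Socs1 is open in 7, and Socs6 and Stat5b are mostly open.

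The genes whose 6 values ran closest to those of Cish, by Euclidean distance between values centred on each gene's mean, were Lta, which encodes lymphotoxin alpha (distance 0.0483 log2 units), the calcium-dependent kinase gene Camk2b (0.0503), the beta receptor gene Csf2rb2 (0.0517), the nucleoside transporter gene Slc29a3 (0.0559) and the Ral exchange factor gene Ralgps2 (0.0574). Their log2 fold changes lay between 0.48 and 0.54. Socs3 stood at a distance of 0.237 and was the nearest of the other 9 genes, with 187 genes closer to Cish. The distance over 6 arrays mostly reads the size of the difference between the groups.

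The rest of the pathway was read from 7 lists holding 67 genes, chosen with earlier results of these data known, and 62 were measured. Of these 62, 12 rose and 1 fell by limma, and their median log2 fold change was 0.016. Over all genes tested 4.05% were called higher and 2.98% lower, and the median was -0.037. Among 12 measured receptors that can signal through STAT5, 4 rose and 1 fell. Il2ra, the alpha chain of the interleukin 2 receptor and a STAT5 target, had 12.34, 12.46 and 12.31 with Cre-ERT2, against 11.40, 11.38 and 11.52 with ERT2, a log2 fold change of 0.94 (SE 0.0567). The kinase receptor gene Flt3 rose by 0.56 (SE 0.0396). The beta receptor genes Csf2rb2, of interleukin 3, and Csf2rb, shared with interleukin 5 and GM-CSF, rose by 0.54 (SE 0.0423) and 0.24 (SE 0.0452), and as near-identical copies their probes may read each other. Il7r, the receptor chain through which interleukin 7 drives early B cells, had 12.45, 12.40 and 12.40 with Cre-ERT2, against 13.03, 13.00 and 13.02 with ERT2, which fell by 0.60 (SE 0.0372, limma adjusted p = 4.54e-05). The thymic stromal lymphopoietin receptor gene Crlf2 was at -0.046 and did not pass.

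Of 3 measured JAK kinases Jak2 rose by 0.27 (SE 0.0458, limma adjusted p = 0.00980), with Jak1 at -0.058 and Tyk2 at 0.074. Of 4 other measured STATs Stat2, which carries type I interferon signals, rose by 0.39 (SE 0.0452, limma adjusted p = 0.00134). Stat3, the other neighbour of Stat5a, was at 0.12 and Stat4 at -0.14, and neither passed (adjusted p = 0.110 and 0.0632). Of 13 other inhibitors of JAK-STAT signalling, Usp18, an interferon-induced protease that also blocks the interferon receptor, rose by 0.65 (SE 0.0491) and the other 12 did not pass. The phosphatase genes Ptpn1 and Ptpn6 were at 0.15 and 0.16 (limma adjusted p = 0.0549 and 0.0601). Of the 6 SOCS box ligase subunits 0 were called by limma, where 7.03% of all genes were called. Eloc alone was under an unadjusted p of 0.05, at -0.11 (limma adjusted p = 0.174).

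Of 18 STAT5 target genes 6 rose and 0 fell by limma (8 higher and 1 lower at an unadjusted p under 0.05), with a median log2 fold change of 0.074. Among all 19938 genes 4.05% were called higher and 2.98% lower, with a median of -0.037. At the unadjusted threshold 1596 of all genes were higher and 2994 lower. Several of the 18 targets were called. Beside Il2ra, the targets that rose were the cyclin genes Ccnd1 (0.60, SE 0.0519) and Ccnd2 (0.18, SE 0.0348), Lta (0.52, SE 0.0419), the ERK phosphatase gene Dusp5 (0.25, SE 0.0445) and the survival gene Bcl2 (0.25, SE 0.0396). Not passing were Pim1 at 0.044, Myc at -0.039, Bcl6 at 0.14 (limma adjusted p = 0.0742) and Bcl2l1, which encodes BCL-XL, at -0.17 (limma adjusted p = 0.121). The target list did not record in which direction STAT5 moves each gene. Of 7 genes for BCR-ABL1 and its adaptors 0 were called by limma, and 0 had an unadjusted p under 0.05; Grb2, the member of smallest p, had a log2 fold change of 0.085 (adjusted p = 0.241), and Abl1 was at -0.0092. The calls of Ccnd2, Csf2rb and Dusp5 ended in 6, 3 and 3 of the 14 settings, among them settings without some single array (highest adjusted p 0.0792, 0.0732 and 0.0590).

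**Figure D4:**
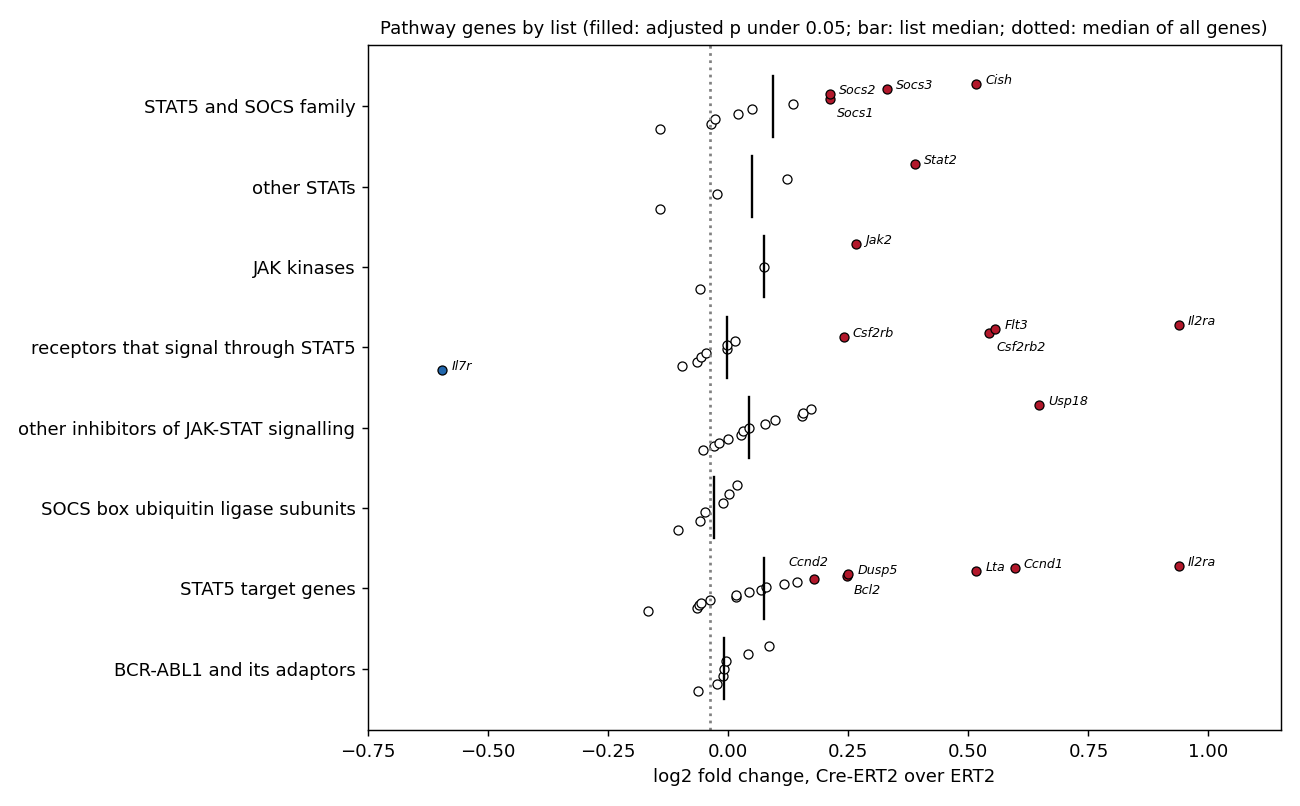
Log2 fold change, Cre-ERT2 over ERT2 (x axis), of each measured gene in the STAT5 and SOCS family and in 7 pathway lists (rows); filled and named points passed an adjusted p under 0.05, bars are list medians and the dotted line is the median of all genes, -0.037. Il7r, at -0.60, is the only filled point below 0, and Il2ra, at 0.94, stands in both the receptor and the target list.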

How the data were processed

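Expression was measured on 6 whole-transcript arrays, 3 per group. The authors deposited 1 log2 value per probe set and array. The submitters' processing notes list RMA, an array summary method, and the program Partek 6.5 without saying how each was used. Background setting and genome build are not given in the sources used here. Precision is limited by having 3 arrays a group, with a median within-group SD of 0.0587 per gene. Of 35556 probe sets, 21789 had a single gene symbol in the platform annotation, and each gene was represented by its such probe set of highest mean (19938 genes). No low-value filter was applied, and all 10 genes also stay with the dimmest 30% left out.

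Differences, Cre-ERT2 minus ERT2, were fitted with limma 3.58.1 in R 4.3.3 (lmFit, eBayes without trend), with Benjamini-Hochberg adjustment over all genes, and were tested on simulated data. A second fit took all single-symbol probe sets. The 14 alternative settings were a replicate block, an eBayes trend, array weights, quantile, median and cyclic loess scaling, the dimmest 30% left out, probe set means, and each of the 6 arrays left out. The genes and lists were chosen with earlier results of these data known. All 10 genes are named, every called gene of a pathway list, or its member of smallest p where none was called. The 5 genes most like Cish are also named, with clone-style, predicted-gene and small RNA names left out. Other genes named, those below threshold and chromosomal neighbours, were chosen after their values were seen. List genes without a single-symbol probe set were not analysed here. The R package data.table was version 1.17.8. Figures used matplotlib 3.10.9 and pandas 2.3.3 under Python 3.11.15.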

Additional observations from a re-analysis of the deposited data

How the results depend on the processing

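The count of called genes over all 19938 was 1402, and 805 with a replicate block, 3339 with array weights, 2271 at an adjusted p under 0.1, and between 743 and 1341 with single arrays left out (without replicate 1 or 2 of Cre-ERT2 it was 804 and 743, and without replicate 1 or 2 of ERT2 770 and 934). Of the calls 57.6% were higher, and after cyclic loess 67.9% were (962 higher, 455 lower), but lower calls were the majority with array weights (1315 higher, 2024 lower) and at an adjusted p under 0.1 (1081 higher, 1190 lower). Of the 10 genes 4 were called, between 3 and 6 under the alternatives, all 4 with the replicate block. Of 62 pathway genes 13 were called, 11 with the replicate block and 20 with array weights. No pairing by replicate number was seen: deviations of same-numbered arrays correlated at 0.0506, -0.0946 and -0.26. Those of differently numbered arrays correlated from -0.293 to 0.311. With 3 arrays a group these values cannot exclude a pairing. With single arrays left out the log2 fold change ran from -0.0019 to 0.044 for Socs4, from -0.022 to 0.12 for Socs5 and from -0.055 to 0.0064 for Socs7. The cause of these shifts was not tested. The median log2 fold change of all genes was -0.04 after quantile normalization, -0.038 after median centring and -0.011 after cyclic loess.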
